A study of Homo sapiens with 2 samples.

Results

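Amino acid transporters of the plasma membrane were examined for binding of YBX1 to their mRNAs. SLC38A2, which carries small neutral amino acids into the cell together with sodium, was chosen by its 5 YBX1 sites in the list. The genes set beside it were its close relative SLC38A1, the cationic amino acid carrier SLC7A1, the large neutral amino acid carrier SLC7A5, the cystine and glutamate exchanger SLC7A11, the heavy chain SLC3A2, which pairs with SLC7A5 and SLC7A11, and the glutamine carrier SLC1A5. A site belonged to a gene where its midpoint lay inside the GENCODE span of that gene on the site's own strand. By this rule 9 of 2054 sites fell in 5 of the 7 genes, with 5 sites in SLC38A2 and 4 in the other 6 genes. Since SLC38A2 was selected on its number of sites, that number and all comparisons with it are a description and carry no test.

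The sites came from PAR-CLIP of YBX1 in HEK293, a line of human embryonic kidney cells, in 2 replicates that the authors pooled into 1 list. In PAR-CLIP the cells build 4-thiouridine into new RNA in place of uridine, ultraviolet light then crosslinks it to bound protein, and RNase T1, which cuts after G, trims the RNA around the protein before it is sequenced. Per the methods, the cells were T-REx HEK293 Flp-In cells in which tagged YBX1 (FLAG/HA) was stably overexpressed, and the protein was taken from the lysate by its FLAG tag, while the labels name an antibody to YBX1 itself. There was no untreated or control group. Only positions are listed, with neither read counts nor scores, so no site has a replicate error, the depth behind it is unknown and the sites have no order of strength. No expression values of this line entered the comparison, so a gene without a listed site cannot be told apart from a gene with little mRNA in these cells and was not shown to be unbound.

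YBX1 is a cold shock domain protein that binds many cytoplasmic mRNAs with a preference for C and A bases and takes part in their packaging, translation and stability. SLC38A2, also called SNAT2, is known as the amino acid carrier whose mRNA and protein rise when cells lack amino acids, through the transcription factor ATF4 and the amino acid response. SLC7A5 and SLC1A5 are known for bringing leucine and glutamine to the growth kinase complex mTORC1, and SLC7A11 for the cystine that glutathione synthesis needs.

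The sequences of the 9 sites are given because they are all that the list holds for these genes. Each is written 5′ to 3′ on the RNA strand with T for U, read from the GRCh38 (hg38) genome, and its capitals mark the tetramers CAUC, CACC and CAAC, the C and A tetramers searched for on that strand only. The 5 sites of SLC38A2 are numbered from the 5′ end of the mRNA.
SLC38A2 site 1: acttCAACtactcctacccCACCaag
SLC38A2 site 2: acctcactattttattttCAACtcacag
SLC38A2 site 3: cttcatacctactcttctatcttg
SLC38A2 site 4: CACCactcaaactcaaactcag
SLC38A2 site 5: acaaactcttaacttttatcaag
SLC7A1 site: tCAACaaaatattcacttg
SLC7A5 site: tccctttttctccacactccactg
SLC3A2 site: acccactacccttctcctttccttcccag
SLC1A5 site: cactcccagggactctggggag
Each of these 9 sequences occurs at 1 place in the genome. All 9 end in G, as 87.6% of the 2054 listed sites do, and 79.2% of the list follow a G. The final base of every site was read where G lies, so the final G is no independent trait. Of the 9, 8 follow a G and hold no further G, whereas the SLC1A5 site follows an A and holds 7 G before its last base. When 2 bases were left off each end, the SLC7A1 sequence, at 19 nt the shortest of the 9, occurred at 55 places, and the other 8 still occurred at 1.

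SLC38A2 stood out by the number of its sites. Among 20046 protein-coding genes, 1366 (6.81%) held at least 1 site, and 28 (0.14%) held 5 or more, of which 12 held more than 5. SLC38A2 was thus 1 of 16 genes with exactly 5 sites, and only the 12 held more. A site counted for every gene whose span covered it, so these numbers can count a site more than once. Among the 16 were TMED7-TICAM2, counted beside TMED7, and ENSG00000285901. Neither had a site in the coding sequence or 3′UTR of its chosen transcript. Of the 7 transporters 5 held a site (71.4%, 95% Wilson interval 35.9 to 91.8%). All 7 were chosen with earlier results of these data known, which helped to fix this share. It is therefore a description and no test of enrichment. Across the wider solute carrier family, 25 of 374 genes whose symbols begin with SLC held a site (6.68%), which is close to the share over all protein-coding genes. After SLC38A2 the most sites in that family were 2, in the transporter genes SLC35F2, SLC20A1, SLC16A14 and SLC16A1. The Wilson intervals here cover counting error only.

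**Figure D1:**
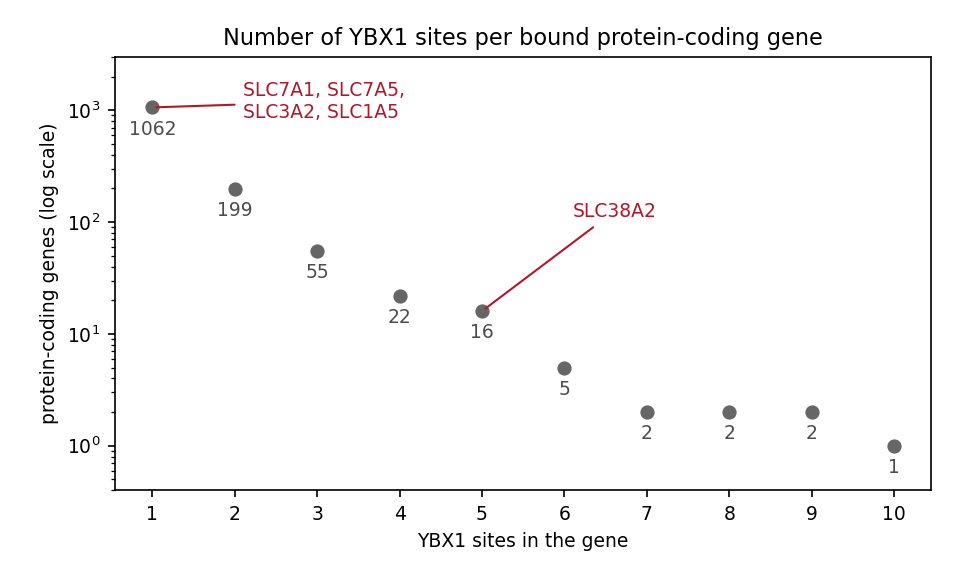
Each point gives the number of protein-coding genes (y axis, log scale) that held the number of YBX1 sites on the x axis, with the count printed below it. SLC38A2 is among the 16 genes with 5 sites, and SLC7A1, SLC7A5, SLC3A2 and SLC1A5 are among the 1062 genes with 1 site.

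The SLC38A2 gene lies on chromosome 12 from 46358188 to 46372773 on the minus strand and has 16 exons in the transcript chosen for it (MANE Select). Its mRNA is 4795 nt long, with 351 nt of 5′UTR, 1521 nt of coding sequence and 2923 nt of 3′UTR. Its sites lay in 2 regions of this mRNA, with 3 in the coding sequence and 2 in the 3′UTR.

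Site 1 (chr12:46371195-46371220, minus strand) lay in exon 2 and covered coding nucleotides 74 to 99, near the start of the coding sequence. Site 2 (chr12:46364389-46364416) lay in exon 10 at coding nucleotides 846 to 873 and ended on the last base of that exon. Site 3 (chr12:46363102-46363125) lay in exon 13 at coding nucleotides 1075 to 1098. These 3 sites were thus in 3 separate exons, and the authors' annotation also placed each of them in an exon. Site 4 (chr12:46361085-46361106) covered nucleotides 5 to 26 of the 3′UTR in the last exon, directly behind the stop codon. Site 5 (chr12:46360820-46360842) covered nucleotides 269 to 291 of the same 3′UTR. The authors' annotation gave both as 3′ UTR.

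On the spliced mRNA the gaps between neighbouring sites were 746, 201, 427 and 242 nt, and 2632 nt followed site 5. All 5 sites therefore lay within 1739 nt, at 9.12, 25.2, 30, 39.4 and 44.9% of the length of the mRNA. No site was listed in the 5′UTR or in the more distant part of the 3′UTR. Both 3′UTR sites of SLC38A2 lay within 300 nt of the stop codon, against 199 of 949 sites in other protein-coding genes (21%), counting those whose midpoint and first base both lay in the 3′UTR, whose median distance from the stop codon was 1024 nt. The limit of 300 nt was set after the positions were seen.

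**Figure D2:**
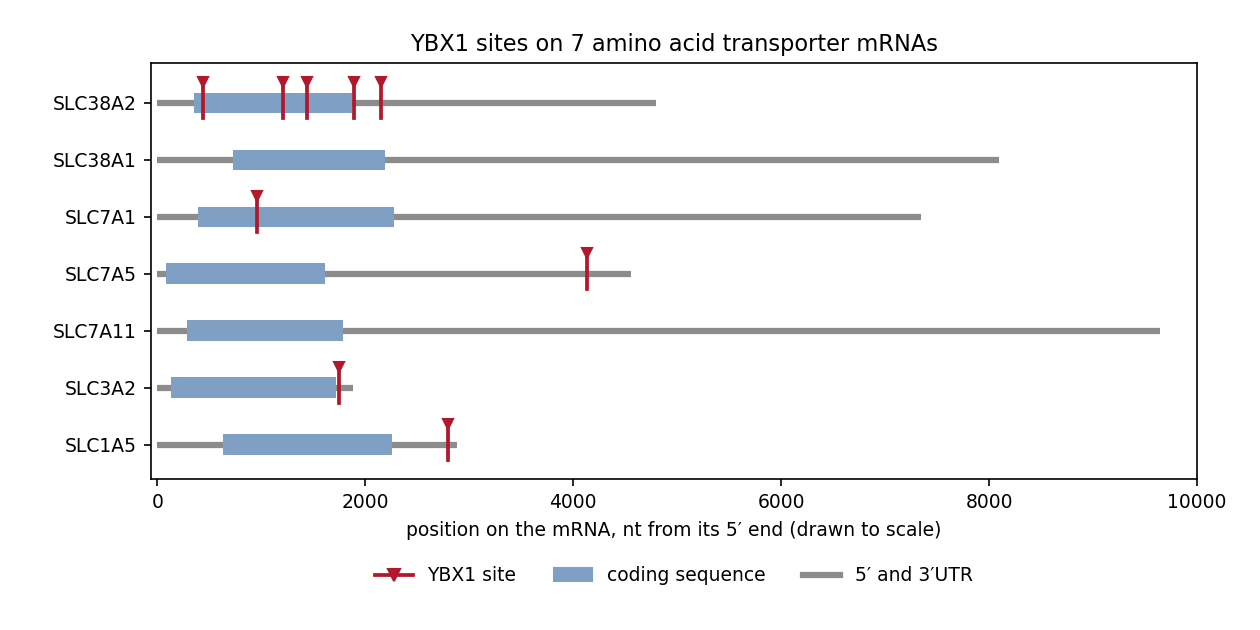
The 7 mRNAs are drawn to scale from their 5′ ends, in nt, with boxes for coding sequence, lines for the untranslated regions and a mark at the middle of each YBX1 site. SLC38A2 carries 5 marks, all in the part up to 44.9% of its 4795 nt, SLC7A1, SLC7A5, SLC3A2 and SLC1A5 carry 1 each, and SLC38A1 and SLC7A11 carry none.

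The class of 2 of these sites depended on the transcript. SLC38A2 has 14 annotated transcripts, and sites 2 and 3 were coding in 3 of them and in a 3′UTR in 1, a transcript annotated as a target of nonsense-mediated decay. When any transcript with a 3′UTR took precedence, 4 of the 5 SLC38A2 sites were 3′UTR sites, and 7 of the 9 transporter sites (77.8%, Wilson interval 45.3 to 93.7%), against 1130 of 2045 other sites (55.3%, 53.1 to 57.4%). With 1 transcript per gene, 2 of 5 and 5 of 9 were 3′UTR sites (55.6%, 26.7 to 81.1%), against 950 of 2045 other sites (46.5%, 44.3 to 48.6%). In the authors' annotation the share was 33.3% of the 9, with the SLC3A2 site classed as non-coding and the SLC1A5 site as a transcription termination site. The share of the other sites under these classes is not given here, so 33.3% cannot be called low or high. The intervals of the transporter sites overlapped those of the other sites under both rules. They cover counting error only, and 5 of the 9 sites came from 1 mRNA that was selected for its sites. The overlap is therefore no test of a difference in class.

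Sites in both the coding sequence and the 3′UTR were common among genes with many sites. Of 43 nuclear genes with 4 or more sites, 20 held both kinds, SLC38A2 among them, 17 held 3′UTR sites only and 10 held 3 or more coding sites. These 10 included, besides SLC38A2, the translation elongation factor EEF2 with 3 coding and 3 3′UTR sites and the splicing cofactor SON with 4 and 1. Both were picked as examples after their values were seen.

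The density of SLC38A2 sites was 1.97 per kb of coding sequence, 0.684 per kb of 3′UTR and 1.04 per kb of whole mRNA. Among the 746 genes with a 3′UTR site it ranked 243rd by sites per kb of 3′UTR, where the median was 0.454. It was therefore less extreme by its density in the 3′UTR than by its number of sites. Among the genes with 4 to 6 sites whose 3′UTR density was nearest to that of SLC38A2 on the log2 scale were MASTL, a mitotic kinase (0.706 per kb), FEM1B, a substrate receptor of a ubiquitin ligase (0.649), SERBP1, a ribosome-associated mRNA-binding protein (0.741), and LRRC58 (0.598). Of these, MASTL was most like SLC38A2 in layout as well, with 3 coding sites and 1 3′UTR site. SERBP1 and LRRC58 held 4 3′UTR sites each and no coding site, and FEM1B held 3 and 1.

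SLC38A1, which encodes the sodium-coupled neutral amino acid carrier SNAT1 and lies on the same arm of chromosome 12 (46183063 to 46270017, minus strand), held no listed site. Its mRNA is 8097 nt long with 5907 nt of 3′UTR, so it offered more length than SLC38A2. The coding sequences of both genes were identical at 912 of 1413 aligned bases (64.5%). At site 2, where the alignment ran without a gap, 19 of 28 bases were the same, and the pair is shown because it sets a bound stretch beside its unlisted relative.
SLC38A2 site 2: acctcactattttattttCAACtcacag
SLC38A1 at the same place: gccaaaatatgttaccttcaattcaaag
The SLC38A1 stretch (chr12:46204301-46204328, minus strand) holds 2 G before its last base, where RNase T1 can cut, and none of the 3 tetramers. After the later of these G, 17 nt remain up to the end, and reads longer than 16 nt were kept. The C plus A share of this pair was 57.1% in SLC38A2 and 60.7% in SLC38A1. At sites 1 and 3 the alignment had gaps, with 15 of 26 and 16 of 24 bases aligned.

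SLC7A1, which encodes the arginine and lysine carrier CAT1 (chromosome 13, 29509414 to 29595688, minus strand), held 1 site in its coding sequence. It lay in exon 5 of 13 at chr13:29530658-29530676 and covered coding nucleotides 566 to 584 of 1890. None lay in its 3′UTR of 5066 nt. The density was 0.529 sites per kb of coding sequence and 0.136 per kb of mRNA, and both were below those of SLC38A2.

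SLC7A5 encodes LAT1, the light chain that carries leucine and other large neutral amino acids (chromosome 16, 87830023 to 87869507, minus strand). Its 1 site, at chr16:87830437-87830460 in exon 10 of 10, covered nucleotides 2510 to 2533 of a 3′UTR of 2947 nt. This 3′UTR is about as long as that of SLC38A2, but its site lay near the far end and those of SLC38A2 near the stop codon. The density was 0.339 per kb of 3′UTR, which ranked 484th of the 746 genes.

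SLC3A2 encodes CD98, the heavy chain that brings SLC7A5 and SLC7A11 to the membrane (chromosome 11, 62856004 to 62888880, plus strand). Its 1 site, at chr11:62888710-62888738 in exon 9 of 9, covered nucleotides 17 to 45 of a 3′UTR of only 167 nt. This short region gave a density of 5.99 per kb, which ranked 17th of 746 and rests on 1 site. The authors' annotation classed the site as non-coding and named no gene for it, so a search by their gene names misses it.

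SLC1A5 encodes ASCT2, which exchanges glutamine and other neutral amino acids (chromosome 19, 46774883 to 46788594, minus strand). Its 1 site, at chr19:46774958-46774979 in exon 8 of 8, covered nucleotides 531 to 552 of a 3′UTR of 627 nt and was given as a transcription termination site by the authors' annotation. The density was 1.59 per kb, which ranked 70th of 746. This site was the exception among the 9 in its bases, since 8 of its 22 bases were G, and 103 of 2040 other sites (5.05%) also held 7 or more G before the last base. That limit of 7 was taken from the SLC1A5 site itself.

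SLC7A11, which encodes the cystine carrier xCT (chromosome 4, 138164097 to 138242349, minus strand), held no listed site on an mRNA of 9645 nt, the longest of the 7, with 7859 nt of 3′UTR.

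The 9 sites were rich in C and A. Over their 217 bases, 36.4% were C, 26.3% A, 30% U and 7.37% G, and C plus A came to 62.7%. Over 2040 other sites of at most 60 nt, C plus A came to 60.6%, and the median per site was 60.9% in the transporters and 61.5% in the others. The sum of C and A in the transporter sites was thus about that of the list as a whole. Taken singly, the 2 bases differed over the 9 together, since the other sites held less C (28.5%) and more A (32.1%). In the 5 SLC38A2 sites C was 34.1% and A 30.9%, so their A was near that of the other sites. The 4 sites of the other 6 genes held 39.4% C and 20.2% A. Sites 1 and 4 of SLC38A2 were the highest, at 76.9 and 81.8%, while site 3 and the SLC1A5 site were the lowest at 50% each. Between them lay SLC38A2 sites 2 and 5 with 57.1 and 60.9%, SLC7A5 with 58.3%, SLC7A1 with 63.2% and SLC3A2 with 65.5%. SLC38A2 alone therefore spanned the whole range of the 9. Each site also held uridines, the base that 4-thiouridine replaces, with 3 in SLC38A2 site 4 and in the SLC1A5 site and 11 in SLC38A2 sites 2 and 3.

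**Figure D3:**
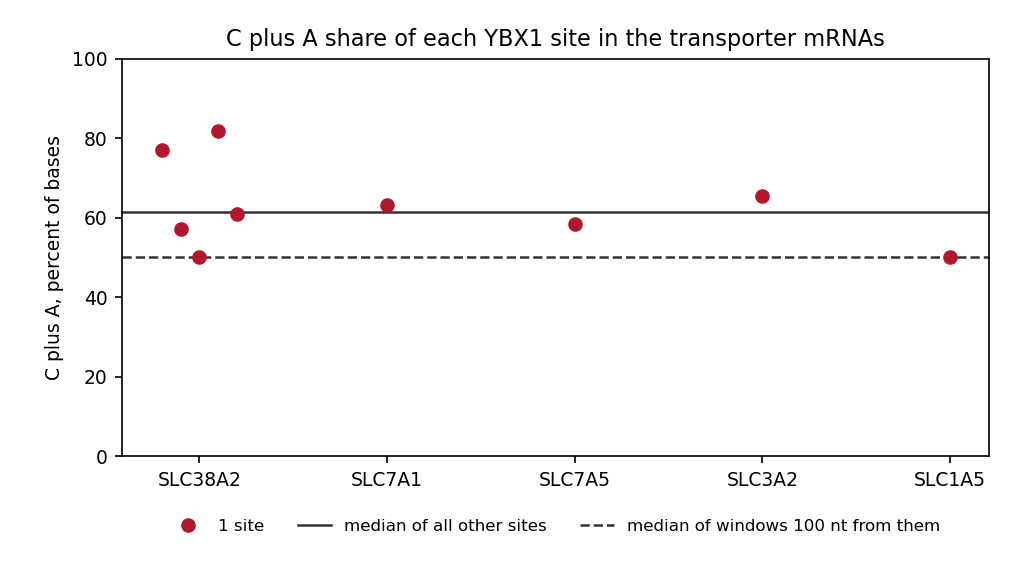
Each point is 1 YBX1 site of a transporter mRNA, with its C plus A share in percent of bases on the y axis and the sites of SLC38A2 in mRNA order. The solid line is the median of the 2040 other sites (61.5%) and the broken line the median of windows 100 nt from them (50%), and the 5 SLC38A2 sites run between 50 and 81.8%.

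Sequence beside the sites held less C and A. C plus A was 62.7% in the sites and 39.9% in 12 windows, each as wide as its site and placed 100 nt up or down within that exon, a difference of 22.8 percentage points. In 17 windows 100 nt away along the spliced mRNA it was 43.2%, and in the 10 of these from SLC38A2 it was 47.6%, against 46.7% over the whole SLC38A2 mRNA. G moved with this difference, at 7.37% of bases in the sites and 23.4% in the 12 windows. RNase T1 cuts after G, and the windows were not matched for it. Counted among A, C and U alone, C plus A was 67.7% in the sites, 52% in the 12 windows and 56.7% in the 17 windows along the mRNA. In SLC38A2 alone it was 67.8% in the sites and 59.1% in the 10 windows. For all other sites the values on this scale were 65.9% in the sites and 62.2% in their 2710 windows. Those windows lay within the exon of each site, as the 12 did, so the transporter value of the same kind is 52%.

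Of the 9 sites, 4 held at least 1 of the 3 tetramers (44.4%), against 1067 of the 2040 other sites (52.3%) and 489 of the 2710 windows (18%). CAAC was in 3 sites, namely sites 1 and 2 of SLC38A2 and the SLC7A1 site, or 33.3%, against 26.6% of other sites. CACC was in 2, sites 1 and 4 of SLC38A2, or 22.2%, against 14.6%. CAUC was in 0 of 9 and in 25.1% of other sites. Sites 3 and 5 of SLC38A2 and the sites of SLC7A5, SLC3A2 and SLC1A5 held none of them, which says only that these letters are not in these stretches.

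RNase T1 cuts after G, and reads of 16 nt or less were not kept. Of the 9 sites 8 held no G before the last base, against 1581 of 2040 other sites (77.5%), so sites were not confined to stretches between neighbouring G. Stretches of at least 17 nt that follow a G and run to the next G were therefore counted on each mRNA, a count that was added after the sites were seen. SLC38A2 held 40 such stretches, or 8.34 per kb, a density at the 95.1st percentile of the 19550 protein-coding genes that have a 3′UTR, where the median was 4.1. Among those with a YBX1 site the median was higher, at 5.26 per kb. SLC38A2 thus had more such stretches per kb than most genes. SLC7A11 was as dense, with 83 stretches and 8.61 per kb, and SLC38A1 held 53 at 6.55 per kb, yet neither held a site. SLC7A1 held 39 at 5.31 per kb and SLC7A5 14 at 3.07. SLC1A5 with 8 (2.78 per kb) and SLC3A2 with 4 (2.12 per kb) held the fewest, and both still held a site, although that of SLC1A5 lay in none of its 8 stretches.

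A site overlapped 5 of the 40 stretches of SLC38A2 (12.5%, Wilson interval 5.46 to 26.1%), with 3 of 9 in the coding sequence and 2 of 30 in the 3′UTR. On the other mRNAs that held a site, 1490 of 34855 stretches did (4.27%), with 6.77% in coding sequence and 3.55% in 3′UTRs. These rates are those of mRNAs already known to hold a site, and SLC38A2 was selected for holding many, so the comparison is not a test. In the other transporters a site overlapped 1 of 39 stretches in SLC7A1, 1 of 14 in SLC7A5 and 1 of 4 in SLC3A2.

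**Figure D4:**
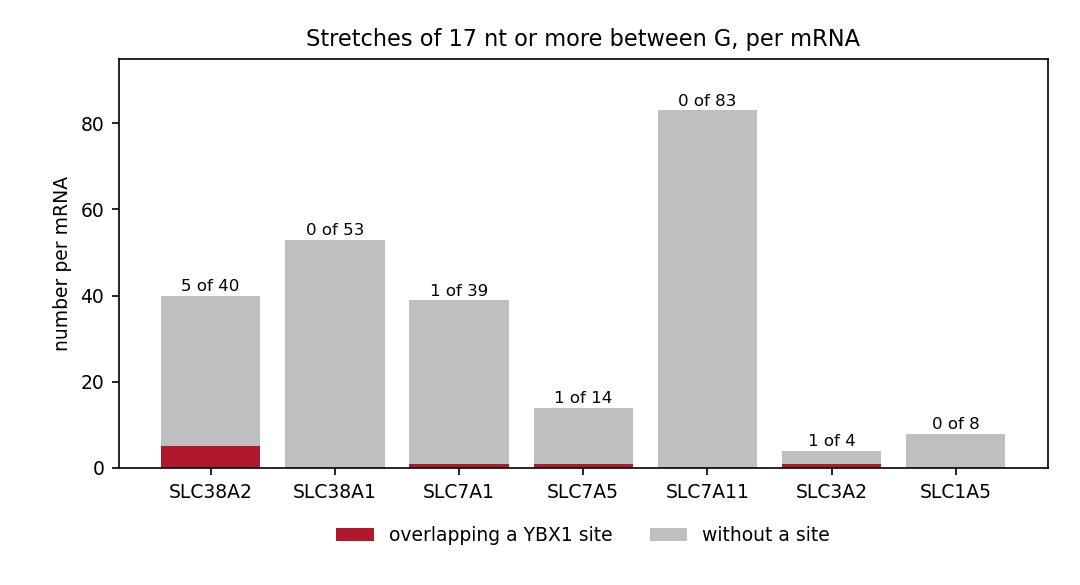
Bars give, for each mRNA, the number of stretches of 17 nt or more between neighbouring G, with the stretches that overlap a YBX1 site in red at the foot and the counts printed above. A site overlaps 5 of 40 stretches in SLC38A2, and 0 of the larger numbers in SLC38A1 (53) and SLC7A11 (83).

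Stretches rich in C and A did not all carry a site. In SLC38A2 the median C plus A share was 60.9% in the 5 stretches with a site and 56.2% in the 35 without. A share of at least 60% was found in 18 stretches of SLC38A2, 27 of SLC38A1 and 22 of SLC7A11. The stretches printed here are examples rich in C and A without a listed site in these 3 mRNAs. They are shown to set their bases beside those of the listed sites. The printed stretches of SLC38A1 and SLC7A11, at 17 and 18 nt, are shorter than any of the 9 sites. Longer and richer stretches without a site are not printed, such as 25 nt at 92% in the 3′UTR of SLC38A1 and 36 nt at 86.1% in that of SLC7A11. The one of SLC38A1 is mostly a run of A and holds only 1 uridine.
SLC38A2 coding, no site: aaacaataaaCACCACCttaacacag
SLC38A2 3′UTR, no site: tacaaacactaaaaaaaacttg
SLC38A1 coding, no site: ctaaattCAACaataag
SLC7A11 3′UTR, no site: cacacacacacatacatg
The SLC38A2 coding stretch (chr12:46364473-46364498, minus strand) covers coding nucleotides 764 to 789, lies in the same exon as site 2, and has a C plus A share of 84.6%, above all 5 bound stretches of that mRNA. The 3′UTR stretch of SLC38A2 (chr12:46358524-46358545) begins at nucleotide 2566 of the 3′UTR and has 77.3%. The SLC38A1 stretch (chr12:46204359-46204375, minus strand) has 70.6% and a CAAC, and the SLC7A11 stretch (chr4:138169176-138169193, minus strand) has 83.3%. Each holds between 2 and 4 uridines, as SLC38A2 site 4 does with 3. By C and A content these unlisted stretches lay within or above the range of the listed ones. The SLC7A11 stretch is mostly repeated CA. Places in the genome were counted for listed sites only, so whether reads of these unlisted stretches could be placed is unknown. They are therefore not matched counterparts of the listed sites.

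Of 54 further genes for carriers of amino acids in the plasma membrane, lysosome and mitochondrion, 2 held a site (3.7%), with a Wilson interval of 1.02 to 12.5% that includes the 6.81% of all protein-coding genes. They were SLC1A3, the glutamate and aspartate carrier of glia, and SLC43A1, a carrier of large neutral amino acids. Both sites lay in the coding sequence of the chosen transcript and are shown for comparison with those of SLC38A2.
SLC1A3 site: tcttaccacttatCATCtccag
SLC43A1 site: tctCATCAACAACttaCACCtccag
The SLC1A3 site (chr5:36629555-36629576, plus strand) covers coding nucleotides 287 to 308 of 1629 in exon 3 of 10. It was coding in 18 annotated transcripts and in a 3′UTR in 1, a target of nonsense-mediated decay. The SLC43A1 site (chr11:57489251-57489275, minus strand) covers coding nucleotides 1311 to 1335 of 1680, holds all 3 tetramers and, like site 2 of SLC38A2, ends on the last base of its exon.

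Among 46 genes of the amino acid response and of amino acid sensing by mTORC1, 10 held a site (21.7%, Wilson interval 12.3 to 35.6%), with 14 sites in all, against 6.81% of all protein-coding genes. This list and that of the 54 further carriers were chosen with earlier results of these data known. Neither was matched to the other genes for mRNA level in these cells. The shares are therefore a description and no test of enrichment. The median 3′UTR length was 2947 nt in the 7 transporters, 1444 nt in the 54 further carriers and 875 nt in this list. In the signalling branch, EIF2S1, the translation factor whose phosphorylation starts the response, held 2 sites. ATF4, the transcription factor that it raises, held 1 in coding sequence, and its partners and targets ATF3 and DDIT3 held 1 and 2. Among the enzymes and other targets, PSAT1 of serine synthesis held 2, SHMT2 of mitochondrial one-carbon metabolism 1, the secreted glycoprotein STC2 1 and GCLM of glutathione synthesis 2. In the mTORC1 branch, the GTPase RHEB, which activates the kinase, and the leucine sensor SAR1B held 1 each. SLC38A2 held 5 sites, and none of these 10 genes held more than 2.

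Several of these sites are printed, those of ATF4, DDIT3 and EIF2S1 because they are in regulators of the amino acid response and that of SHMT2 for its C and A content.
ATF4 site: tcccaaaccttacgatcctcctg
DDIT3 site 1: aatcaaaaatcttCACCactcttg
DDIT3 site 2: ccacactaccCACCtttcccag
EIF2S1 site 1: tactcattaataatattaatag
EIF2S1 site 2: ccattctacttttaCACCaa
SHMT2 site: tCACCACCactactcacaag
The ATF4 site (chr22:39522317-39522339, plus strand) covers coding nucleotides 771 to 793 of 1056 and holds none of the tetramers. The DDIT3 sites (chr12:57517153-57517176 and chr12:57516757-57516778, minus strand) lie in coding sequence and at nucleotides 31 to 52 of a 3′UTR of 216 nt, and the authors' annotation gave them to the neighbouring gene MARS. EIF2S1 (chr14:67380709-67380730 and chr14:67385915-67385934, plus strand) held 1 coding site and 1 near the end of its 3′UTR. The SHMT2 site (chr12:57232807-57232826, plus strand) lay in the coding sequence of the chosen transcript, with a C plus A share of 80%. It was coding in 8 annotated transcripts and in a 3′UTR in 7, all targets of nonsense-mediated decay. As in SLC38A2, coding and 3′UTR sites occurred together in DDIT3, EIF2S1 and PSAT1. The RHEB site, in its 3′UTR, has a sequence that occurs at 3 places in the genome, so its origin is less certain than that of the others.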

How the data were processed

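The authors deposited 1 table of YBX1 PAR-CLIP sites from HEK293 cells, pooled over 2 replicates, which gives position, strand, gene name and class of each site and no other value of a measurement. It holds no read count, so depth per sample is unknown and the line could not be checked by markers. Per the methods and processing notes, reads were trimmed with cutadapt 1.4.1, kept if longer than 16 nt, aligned to GRCh38 and transcripts with PARA-suite, clustered by strand with BMix and annotated with HOMER (hg38).

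Sites were read as 1-based, with the final base 1 before the listed end, where G lies on both strands (87.6% of 2054 sites ended in G, 79.2% followed one, 91.9% occurred at 1 place in the genome, median width 22 nt). Genes, exons and regions came from GENCODE release 44. Region positions and lengths used 1 transcript per gene (MANE Select or canonical). Windows touching another site were left out. Scripts used Python 3.11.15, pandas 2.3.3, pysam 0.24.0, Biopython 1.88 (alignment) and statsmodels 0.14.6 (Wilson intervals), and were checked on simulated data, where 1000 of 1000 sites went to the right gene.

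The transporters, the lists of other genes and the tetramers were chosen with earlier results of these data known. Named were all 7 transporters, every gene of both lists with a site and the 5 genes with 4 to 6 sites nearest to SLC38A2 in 3′UTR density. An item that this rule covers is not reported here. Other genes were named after their values were seen. Alternatives tried were other rules for overlap, strand, width, merging, gene names, transcripts, classes, windows and site ends.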

Additional observations from a re-analysis of the deposited data

How the results depend on the processing

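Of 50 alternative values, 43 stayed within 1.5 times the count or within the error of the value reported, and 7 did not. These limits were wide. The 3′UTR share of the 9 sites counted as unchanged at 55.6%, inside its Wilson interval of 45.3 to 93.7%. Some alternatives could not move a value, such as the limit to sequences at 1 place, which all 9 sites met. The 43 are therefore no measure of robustness. Restricting the list to sites wider than the median left 2 sites in the 6 transporters beside SLC38A2, 1 further amino acid carrier and 6 amino acid response and mTORC1 genes with a site, 0.342 SLC38A2 sites per kb of 3′UTR and 2 sites with a tetramer. This restriction left 4 of the 5 sites in SLC38A2, whose count was 5 under the other alternatives. By its definition it keeps no more sites of the whole list than it drops. The share of all protein-coding genes with a site under it is not given here. The lower counts are therefore not a result about these genes. The longest 3′UTR of any SLC38A2 transcript, 3768 nt in a nonsense-mediated decay transcript, held 4 sites and gave 1.06 per kb. The authors' classes put 33.3% of the 9 sites in 3′UTRs. The C plus A share ran between 57.9 and 67.7%, and its excess over windows was 19.6 points at 300 nt and 19.5 along the mRNA. Windows along the mRNA and the limit to sites with only a final G were added after seeing the data. No paired analysis was possible because the replicates were pooled, and for the same reason no replicate could be left out. With no counts, the depth limits of single sites are unknown.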
